A study of Mus musculus with 6 samples.

Results

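The receptors for the Fc part of immunoglobulin G (IgG) were described across 6 RNA-seq libraries of primary mouse bone marrow-derived macrophages. The 6 genes were chosen by symbol from the deposited gene table, which holds 45706 genes: Fcgr1, Fcgr3 and Fcgr4, which code for activating receptors, Fcgr2b, which codes for the inhibitory one, Fcgrt, which codes for the neonatal Fc receptor, and Fcrls, an Fc receptor-like gene. All 6 symbols were found once. The libraries form 3 groups of 2: cells at day 0 with no treatment named, cells given RANKL for 1 day, and cells given RANKL with sodium acetate for 1 day. RANKL is the cytokine that turns macrophages into osteoclasts, the cells that resorb bone. The sources used here give no dose, mouse strain or age. No group was kept for 1 day without RANKL, so RANKL and the day in culture cannot be told apart. No other sodium salt was given, so acetate and sodium cannot be told apart either. Nothing in the labels says that the 2 libraries of a group came from separate cultures or animals, so p-values measure only the spread between these libraries, which may be technical.

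Fc gamma receptors let macrophages bind particles and complexes coated with IgG. The activating receptors have no signalling motif of their own in the mouse and depend on the common gamma chain, coded by Fcer1g, whose tyrosine motif is phosphorylated by Src family kinases and then recruits the kinase Syk, which leads to phagocytosis and the oxidative burst. The inhibitory receptor carries its own motif, which recruits the phosphatase SHIP1, coded by Inpp5d. The neonatal Fc receptor pairs with beta-2-microglobulin inside endosomes and returns IgG to the cell surface, so it prolongs the life of the antibody. Fcrls is a mouse gene of the Fc receptor-like family, known as a marker of microglia.

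Fcgr2b, Fcgr4 and Fcgr3 lie side by side on chromosome 1 in GENCODE M21 (GRCm38), at chr1:170958617-170976547 on the minus strand, chr1:171018920-171029761 on the plus strand and chr1:171051174-171064935 on the minus strand. Fcrls at chr3:87250758-87263738, Fcgr1 at chr3:96282909-96293969 and Fcgrt at chr7:45092990-45103851 are all on the minus strand. Fcgr2b and Fcgr3 share sequence that bears on how their reads can be assigned. Exon 3 of Fcgr2b and the 255-base form of exon 3 of Fcgr3 were identical at 241 bases (94.51%), and exon 4 was identical at 250 of 255 bases (98.04%). Each codes for an immunoglobulin domain. Exon 4 is shown because it is the closest stretch, with the differing bases in capitals, at chr1:170966446-170966700 for Fcgr2b and chr1:171053939-171054193 for Fcgr3, both read from the minus strand of GRCm38.
Fcgr2b exon 4: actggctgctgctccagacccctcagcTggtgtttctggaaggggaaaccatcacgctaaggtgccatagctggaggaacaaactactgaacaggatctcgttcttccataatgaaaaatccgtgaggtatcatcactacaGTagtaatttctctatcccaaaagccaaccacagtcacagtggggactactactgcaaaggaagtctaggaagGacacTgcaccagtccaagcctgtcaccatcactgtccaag
Fcgr3 exon 4: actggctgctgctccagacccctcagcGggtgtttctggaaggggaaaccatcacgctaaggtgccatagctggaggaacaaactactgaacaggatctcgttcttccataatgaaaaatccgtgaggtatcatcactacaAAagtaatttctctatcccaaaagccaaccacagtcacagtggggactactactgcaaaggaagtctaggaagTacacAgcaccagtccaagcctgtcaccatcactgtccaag

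Of the 50-base stretches of the main coding transcripts, 166 of 1413 in Fcgr2b (11.75%) and 166 of 1298 in Fcgr3 (12.79%) occurred in the other gene. None of those of Fcgr1, Fcgr4, Fcgrt or Fcrls occurred in a transcript of another gene. Reads from the shared stretches were assigned by the authors' estimation step. Values of Fcgr2b and Fcgr3 can therefore carry an uncertainty that those of the other 4 genes do not. Gene-level expected counts were whole numbers for Fcgr2b in every library, from 239 to 597, and for Fcgr3 at day 1, from 183 to 399. They thus show no fractional split of reads between the genes. How the assignment moved these values was not tested, and results for both genes counted as 1 feature are given beside their own. Antisense genes overlap Fcgr2b (Gm38204, at most 1 count in any library) and Fcgrt (Gm45669, not analysed here). How strand was handled is not known here, so reads of such pairs cannot be told apart.

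The Fcgr2b gene also makes forms that differ in the tail inside the cell. An exon of 141 bases, exon 6 of transcript Fcgr2b-201 at chr1:170963325-170963465 on the minus strand, is left out of Fcgr2b-202. The longer form is known from B cells and the shorter from macrophages, where the receptor is taken up together with its cargo. The exon is shown because its share is described below.
Fcgr2b exon 6: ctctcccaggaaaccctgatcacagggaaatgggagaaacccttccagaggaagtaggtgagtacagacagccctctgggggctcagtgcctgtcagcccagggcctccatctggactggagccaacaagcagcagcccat

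The windows before the RefSeq starts of the activating receptors are shown because these 3 genes moved in the same directions, as the other members did, but by different amounts. Each sequence is from RefSeq (GRCm38.p6), within the 250 bases before the RefSeq start, without the bases that GENCODE M21 counts as an exon: chr3:96293970-96294219 (minus strand) for Fcgr1, chr1:171059404-171059626 (minus strand) for Fcgr3 and chr1:171018676-171018919 (plus strand) for Fcgr4. The Fcgr3 window lies inside the gene as GENCODE M21 draws it, since that annotation also holds a transcript with a start farther upstream. Capitals mark matches to 4 motifs searched on both strands, which were chosen after the sequences had been seen: the GAS element TTCNNNGAA bound by STAT factors, an ISRE core GAAANNGAA, the PU box GAGGAA and an ETS core GGAAGT.
Fcgr1 window: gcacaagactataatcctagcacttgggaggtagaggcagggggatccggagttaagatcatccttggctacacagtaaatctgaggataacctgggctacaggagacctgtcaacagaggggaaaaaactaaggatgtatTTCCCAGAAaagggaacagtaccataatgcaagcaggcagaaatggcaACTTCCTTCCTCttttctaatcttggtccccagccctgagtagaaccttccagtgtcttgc
Fcgr3 window: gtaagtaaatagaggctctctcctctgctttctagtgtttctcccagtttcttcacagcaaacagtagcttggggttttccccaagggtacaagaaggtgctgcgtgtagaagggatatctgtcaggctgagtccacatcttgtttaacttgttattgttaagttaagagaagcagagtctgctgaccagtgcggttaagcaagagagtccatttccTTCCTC
Fcgr4 window: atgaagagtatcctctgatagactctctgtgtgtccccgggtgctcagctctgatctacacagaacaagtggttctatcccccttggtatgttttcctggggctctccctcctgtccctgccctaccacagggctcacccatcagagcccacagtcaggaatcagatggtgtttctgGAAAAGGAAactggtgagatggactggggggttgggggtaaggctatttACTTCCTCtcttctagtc

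Counted from the RefSeq start, Fcgr1 held 1 GAS match, TTCCCAGAA, that begins at position -109, an ETS core at -61 and a PU box at -55. Fcgr3 held a PU box at -6 alone. Fcgr4 held 1 match to the ISRE core, GAAAAGGAA, at -73, and an ETS core at -24 that overlaps a PU box at -22. Among the windows of 250 bases in 32851 RefSeq entries, a GAS match occurred in 7.02%, an ISRE core in 7.129%, a PU box in 23.25% and an ETS core in 19.74%. In the whole windows of 250 bases of the remaining members, Fcgr2b held an ETS core, Fcrls a PU box and an ETS core, and Fcgrt none of the 4. The ETS cores of Fcgr2b and Fcrls lie in bases that GENCODE M21 counts as an exon. These matches are letters in a window and no evidence of binding.

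All 6 genes fell with RANKL, all 6 lay above the RANKL group when acetate was added, and all 6 stayed below day 0 with acetate. In each of these comparisons the libraries of the 2 groups did not overlap for any of the 6. The share of all genes tested that separate in this way was not counted, so this is a description. Among all 12224 genes tested, edgeR's quasi-likelihood test called 33.5% lower and 32.8% higher with RANKL against day 0, 16.7% higher and 13.7% lower with acetate against RANKL alone, and 30.4% lower and 30.3% higher with acetate against day 0. A gene was called where its Benjamini-Hochberg adjusted p, computed over every gene tested, was under 0.05. The median log2 fold change of the 6 genes was -3.81 with RANKL, against 0.01 for all genes tested. With acetate it was 1.35 against RANKL alone and -2.15 against day 0, while all genes had medians within 0.01 of 0. All 6 genes passed the filter on low counts, Fcrls through the day 0 libraries alone, so that its fall against day 0 is a description. Fcrls is part of the counts and medians above but adds no support to them. Without Fcrls the middle value was -3.57 (Fcgrt) with RANKL, 1.18 (Fcgr3) with acetate against RANKL alone and -1.61 (Fcgr1) with acetate against day 0. In a bulk sample, fewer cells that express a gene and less RNA per cell cannot be told apart.

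**Figure D1:**
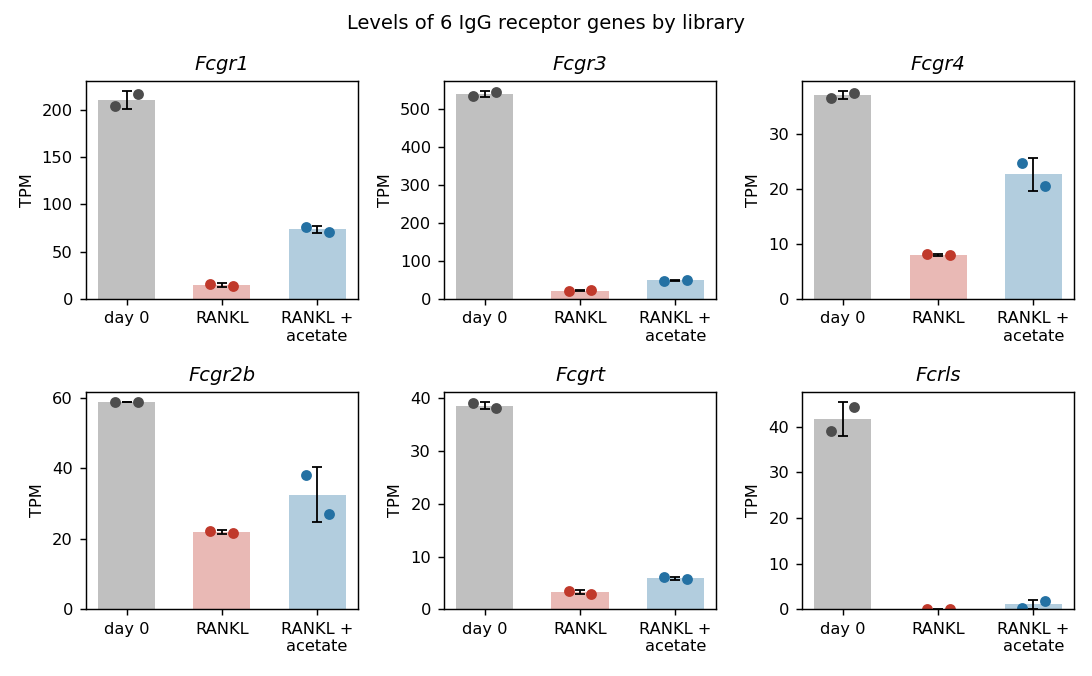
Level of each of the 6 genes in TPM (a share of all transcripts after correction for transcript length), with 1 point per library, the bar at the mean of the 2 libraries and the error bar 1 SD; each panel has its own axis from 0. In every panel the day 0 libraries are highest and the RANKL libraries lowest, with the acetate libraries between them, from 1.085 TPM for Fcrls to 73.61 TPM for Fcgr1.

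Fcgr1, the high-affinity receptor that binds single IgG molecules, had the largest fitted rise with acetate apart from that of Fcrls. Its day 0 libraries held 298.9 and 300.5 CPM (counts relative to the scaled total of the library), the RANKL libraries 18.26 and 17.76 CPM, and the acetate libraries 100.2 and 95.52 CPM. The acetate libraries lay well above those with RANKL alone and at 32.65% of the day 0 level. In the fit across all genes, Fcgr1 fell 16.63-fold with RANKL, a log2 fold change of -4.06 ± 0.06 (SE; edgeR, adjusted p = 4.9e-33). With acetate it was 5.431-fold higher than with RANKL alone, a log2 fold change of 2.44 ± 0.07 (edgeR, adjusted p = 7.71e-24). Acetate against day 0 gave -1.61 ± 0.05 (edgeR, adjusted p = 3.18e-24).

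Fcgr3, the low-affinity receptor for immune complexes, was the most abundant of the 6 at day 0. Its libraries held 426.1 and 429.6 CPM at day 0, 15.69 and 18.3 CPM with RANKL, and 38.19 and 38.97 CPM with acetate. Both day 1 groups were far below day 0, and the level with acetate was 9.017% of it. The fall with RANKL was 25.2-fold, a log2 fold change of -4.66 ± 0.06 (edgeR, adjusted p = 6.97e-35). The acetate libraries were 2.273-fold higher than those with RANKL alone, a log2 fold change of 1.18 ± 0.09 (edgeR, adjusted p = 3.31e-13), and 11.09-fold lower than day 0.

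Fcgr4, a receptor of intermediate affinity for some IgG subclasses, kept the largest part of its day 0 level with acetate. It had 26.83 and 27.32 CPM at day 0, 5.915 and 5.83 CPM with RANKL, and 18.32 and 15.24 CPM with acetate. The acetate libraries lay between the other groups, at 61.98% of the day 0 level. Its log2 fold change was -2.20 ± 0.15 with RANKL (edgeR, adjusted p = 9e-15) and 1.51 ± 0.16 with acetate against RANKL alone (edgeR, adjusted p = 2.78e-09). Against day 0, acetate libraries were 1.613-fold lower (edgeR, adjusted p = 2.62e-05).

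Fcgr2b, the inhibitory receptor, had the smallest fitted fall of the 6 with RANKL and the smallest fitted rise with acetate. Its libraries held 59.11 and 59.45 CPM at day 0, 22.2 and 21.44 CPM with RANKL, and 35.48 and 27.64 CPM with acetate. The acetate libraries differed from each other by more than those of the other groups did, yet both were above the RANKL libraries. The fall with RANKL was 2.715-fold, a log2 fold change of -1.44 ± 0.10 (edgeR, adjusted p = 1.2e-14), and against day 0 acetate gave -0.91 ± 0.10 (edgeR, adjusted p = 5.52e-10). The rise with acetate was 1.446-fold, a log2 fold change of 0.53 ± 0.11 (edgeR, adjusted p = 0.000244). That rise lost its call without acetate replicate 1, at 0.34 (edgeR, adjusted p = 0.0518), and in limma fits of TPM and FPKM, with adjusted p from 0.0646 to 0.0671. With Fcgr2b and Fcgr3 summed into 1 feature, the log2 fold changes were -3.65 with RANKL, 0.85 with acetate against RANKL alone and -2.80 with acetate against day 0, all of them called. Fcgr3 was called on its own in each of these comparisons, so calls of the sum cannot tell whether Fcgr2b itself changed.

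Fcgrt, the neonatal Fc receptor, fell 11.85-fold with RANKL. It had 42.38 and 40.92 CPM at day 0, 3.772 and 3.229 CPM with RANKL, and 6.689 and 6.251 CPM with acetate. Its log2 fold change was -3.57 ± 0.16 with RANKL (edgeR, adjusted p = 2.45e-20), 0.88 ± 0.21 with acetate against RANKL alone (edgeR, adjusted p = 0.00123) and -2.68 ± 0.14 with acetate against day 0 (edgeR, adjusted p = 9.65e-18). The acetate libraries stood at 15.53% of day 0, near those with RANKL alone at 8.405%. B2m, whose product is the partner chain of this receptor, rose slightly in both day 1 groups, with log2 fold changes of 0.24 ± 0.03 with RANKL and 0.35 ± 0.03 with acetate against day 0 (edgeR, adjusted p = 1.66e-07 and 1.07e-10).

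Fcrls was present at day 0 and nearly gone after 1 day with RANKL. Its expected counts were 546 and 530 at day 0, 0 and 2 with RANKL, and 6 and 14 with acetate. The 2 counts of the RANKL group against 1076 at day 0 give a level 624.3-fold lower, with an exact 95% counting interval from 172.4-fold to 5162-fold. Acetate against RANKL alone gave a ratio of 11.09 on 20 against 2 counts, with an interval from 2.694 to 97.87, and against day 0 the acetate group was 56.29-fold lower. The fitted log2 fold change with RANKL was -8.16 without RANKL replicate 1 and -12.15 without RANKL replicate 2, and that of acetate against day 0 was -5.31 without acetate replicate 1 and -6.53 without acetate replicate 2. These intervals cover counting error only. The rise with acetate passed the test (edgeR, adjusted p = 0.00138) but rests on few counts. Without RANKL replicate 1 it lost its call, at a log2 fold change of 2.36 (edgeR, adjusted p = 0.0574), and likewise without acetate replicate 2, at 2.57 (edgeR, adjusted p = 0.0702).

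**Figure D2:**
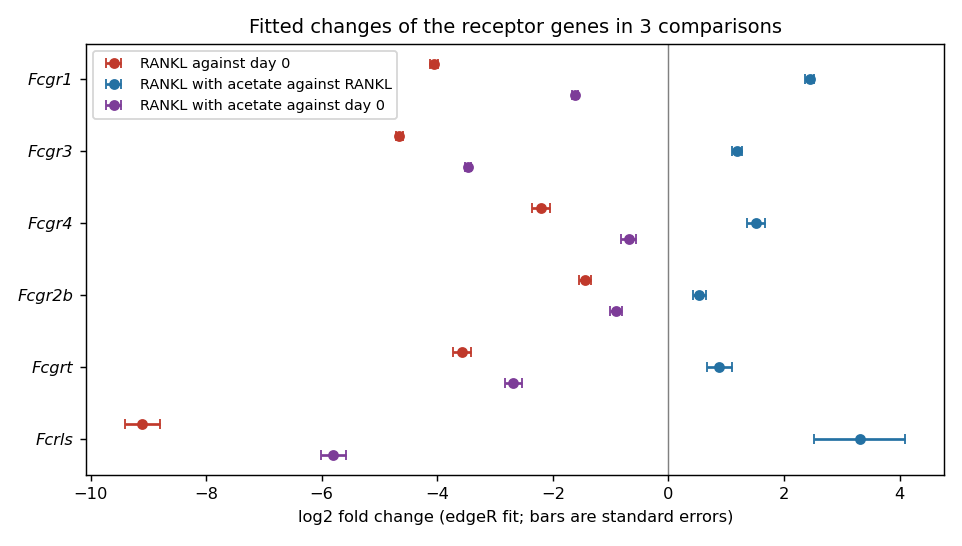
Fitted log2 fold change of each gene (points) with its standard error (bars) in 3 comparisons, from edgeR across all 6 libraries; the RANKL group and the day 0 group each enter 2 of them. Every gene lies left of 0 with RANKL and with acetate against day 0 and right of 0 with acetate against RANKL, and Fcrls has the widest bars because its day 1 libraries held between 0 and 14 counts.

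On the length-corrected scale the order of the genes changed between groups. At day 0 it was Fcgr3 with 538.6 ± 6.72 TPM (SD, n = 2), Fcgr1 with 210.6 ± 9.35, Fcgr2b with 58.73 ± 0.057, Fcrls with 41.69 ± 3.70, Fcgrt with 38.56 ± 0.70 and Fcgr4 with 37.06 ± 0.69. The libraries of neighbours in this order did not overlap, although the lower Fcrls library at 39.07 TPM and the higher Fcgrt library at 39.06 TPM all but touched. With RANKL, Fcgr2b at 21.98 ± 0.52 TPM and Fcgr3 at 21.32 ± 2.11 TPM overlapped and were followed by Fcgr1 at 14.75 ± 1.85, Fcgr4 at 8.025 ± 0.16, Fcgrt at 3.245 ± 0.39 and Fcrls at 0.06. With acetate, Fcgr1 came first at 73.61 ± 3.44 TPM, ahead of Fcgr3 at 47.92 ± 0.55, Fcgr2b at 32.54 ± 7.85, Fcgr4 at 22.62 ± 3.03, Fcgrt at 5.91 ± 0.30 and Fcrls at 1.085 ± 0.98. No other neighbours overlapped in either order.

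The mixture of the 4 Fc gamma receptors differed between groups as well. Their summed level was 833.2 and 856.8 TPM at day 0, 66.37 and 65.79 TPM with RANKL, and 186.4 and 167 TPM with acetate. Fcgr3 made up 64.08% and 63.42% of the sum at day 0, 29.88% and 34.69% with RANKL, and 25.5% and 28.94% with acetate. Its share was higher in the day 0 libraries than in any other, and the RANKL and acetate libraries did not overlap. The inhibitory Fcgr2b held 7.053% and 6.85% at day 0, 33.67% and 32.86% with RANKL, and 20.43% and 16.17% with acetate. Fcgr1 held 24.48% and 25.35% at day 0 and 24.18% and 20.43% with RANKL, and led with acetate at 40.79% and 42.63%.

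The activating receptors were compared with the inhibitory one through the ratio of the summed TPM of Fcgr1, Fcgr3 and Fcgr4 to that of Fcgr2b. The ratio was 13.18 and 13.6 at day 0, 1.97 and 2.043 with RANKL, and 3.894 and 5.186 with acetate. The 3 groups did not overlap, with day 0 highest and RANKL lowest. On the log2 scale the difference was -2.74 for RANKL against day 0, 1.16 for acetate against RANKL alone and -1.57 for acetate against day 0. A two-sided exact permutation test gave p = 0.3333 for each pair of groups, the smallest it can give with 2 libraries against 2, and p = 0.06667 over the 3 groups, again the smallest possible. This test therefore could not pass 0.05 with 2 libraries a group.

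Each activating receptor was also set against Fcgr2b alone. Fcgr3 had 9.085 and 9.259 times the TPM of Fcgr2b at day 0, 0.8872 and 1.056 times with RANKL, and 1.248 and 1.79 times with acetate. For Fcgr1 the ratios were 3.471 and 3.701, then 0.7181 and 0.6216, then 1.996 and 2.637. For Fcgr4 the groups came in another order. Its ratio to Fcgr2b was 0.6224 and 0.6398 at day 0, 0.3642 and 0.3659 with RANKL, and 0.65 and 0.7588 with acetate, so the acetate libraries lay above those of day 0. That difference was small, at 0.15 on the log2 scale, and the acetate libraries of Fcgr2b spread from 26.99 to 38.09 TPM. The exact permutation test again gave p = 0.3333 for each pair.

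**Figure D3:**
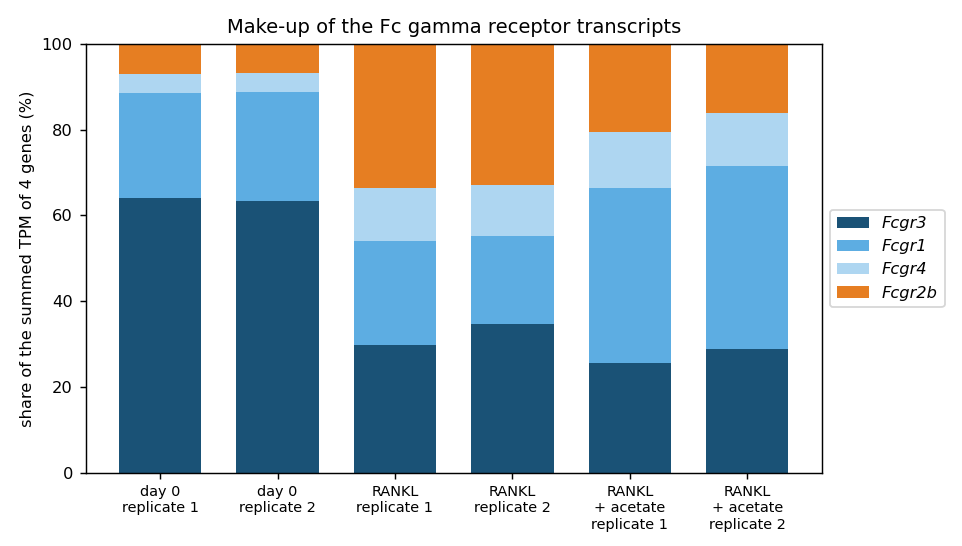
Share of each of the 4 Fc gamma receptor genes in their summed TPM (%), 1 bar per library. Fcgr3 makes up most of the day 0 bars, Fcgr2b about as much as Fcgr3 in the RANKL bars, and Fcgr1 the largest part of both acetate bars.

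The place of the acetate group between RANKL alone and day 0 differed by gene. As a share of the log2 fall with RANKL, the acetate group lay above RANKL alone by 68.69% for Fcgr4 and 60.19% for Fcgr1. The share was 36.94% for Fcgr2b, 25.44% for Fcgr3 and 24.73% for Fcgrt. Both groups were taken at day 1, so no recovery over time was measured. The Fcgr2b value depends on acetate replicate 1, without which its rise was 0.34 instead of 0.53, and none is given for Fcrls, which had 2 counts in the RANKL group. These shares use the RANKL libraries in both of their parts and are given without a test. Fcgr3 and Fcgr4 lie next to each other on chromosome 1, and the value of Fcgr4 was the higher.

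Transcript estimates of Fcgr2b favoured the form without the 141-base exon in every library. Fcgr2b-202, which lacks it, made up 86.22% and 87.64% of the TPM of the coding transcripts at day 0, 80.48% and 82.13% with RANKL, and 84.32% and 81.4% with acetate. Transcripts with the whole exon made up 13.78% and 12.36% at day 0, 12.49% and 11.95% with RANKL, and 8.145% and 11.18% with acetate. The remainder, a form with a shortened exon, was listed at 0 in both day 0 libraries and lay between 5.918% and 7.535% in the 4 day 1 libraries. The last of these rests on 7.28 to 15.63 estimated counts, and the shares of all forms rest on the authors' estimation. Of the B cell markers, Ighm had 202 and 263 counts at day 0 and 26 to 42 in the day 1 libraries, and each of the others held at most 17 counts in any library.

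For Fcgr1 and Fcgr3 most of the estimate fell on 1 transcript, and Fcgr4 and Fcgrt have 1 transcript each in the deposited table. Fcgr1-201, the coding form, made up 83.48% and 78.73% of the TPM of Fcgr1 at day 0, 61.81% and 73.21% with RANKL, and 72.72% and 74.02% with acetate. The rest was Fcgr1-202, annotated as a target of nonsense-mediated decay. It is 600 bases long against 2589 for Fcgr1-201, so few counts weigh heavily in its TPM. With RANKL its shares rest on 18.29 and 10.35 estimated counts, beside 194.7 and 187.7 for Fcgr1-201. Its TPM is part of that of Fcgr1 in the levels, shares and ratios above. Fcgr3-201 made up between 76.63% and 97.93% of the TPM of Fcgr3, and was at 88.39% and 76.63% with acetate, the latter below every other library. Fcrls-201 made up 92.14% and 81.74% of the TPM of Fcrls at day 0 and 37.64% in acetate replicate 2, with Fcrls-202 as the rest, but day 1 shares rest on 0 to 14 counts.

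Fcer1g, the gamma chain on which the activating receptors depend, fell far less than Fcgr1 and Fcgr3 did. The gap to Fcgr4, at -2.20 ± 0.15 with RANKL, was smaller, and Fcgr2b, at -1.44 ± 0.10, fell about as much. Fcer1g had 555.7 and 514 CPM at day 0, 194 and 197 CPM with RANKL, and 231.9 and 239.5 CPM with acetate. Its log2 fold change was -1.45 ± 0.04 with RANKL and 0.27 ± 0.04 with acetate against RANKL alone (edgeR, adjusted p = 3.6e-25 and 1.15e-05). In TPM, Fcer1g was at 1806.1 and 1677.47 at day 0 and at 631.56 and 632.29 with RANKL, above the sum of the 4 receptor genes in all 4 of these libraries.

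Among the partners and other Fc receptors, 16 genes were listed and 7 tested. With RANKL, 5 rose and 2 fell, beside 32.8% and 33.5% of all genes tested. With acetate against RANKL alone 3 were higher, 2 lower and 2 not called, beside 16.7% higher and 13.7% lower among all genes. Against the receptors, several relatives rose with RANKL: Fcrlb, an Fc receptor-like gene, by a log2 fold change of 3.06 ± 0.55, the activating immunoglobulin-like receptor gene Pira2 by 2.99 ± 0.08, Fcrl1 by 2.02 ± 0.17 and Pirb, the inhibitory member of the same family as Pira2, by 1.24 ± 0.06. Pira2 was lower with acetate than with RANKL alone by a log2 fold change of -0.96 ± 0.06 and Pirb by -0.24 ± 0.05, while Fcrl1 at -0.30 ± 0.14 and Fcrlb at 0.15 ± 0.35 were not called. Pira2 belongs to a family of near-identical copies, so its value is uncertain. Fcrlb held 6 counts over the day 0 libraries and 60 in each day 1 group. It passed the filter through the day 1 libraries alone, so its rise is a description and adds no support to the count of genes that rose. Trim21, which codes for the IgG receptor of the cytosol, fell with RANKL at -1.12 ± 0.10 and was higher with acetate by 0.85 ± 0.10.

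Of 18 proximal kinases and adaptors, all tested, 4 rose, 11 fell and 3 were not called with RANKL. Among all genes 32.8% rose and 33.5% fell. With acetate against RANKL alone 7 were higher and 6 lower, beside 16.7% and 13.7% of all genes. The kinases that phosphorylate the receptor motifs went in opposite directions. Src rose from 0.8911 and 1.465 CPM at day 0 to 156.4 and 164.2 CPM with RANKL and stood at 38.58 and 40.34 CPM with acetate. Its log2 fold change was 7.08 ± 0.13 with RANKL and -2.02 ± 0.07 with acetate against RANKL alone. Src held 23 counts over the day 0 libraries and needed the day 1 libraries to pass the filter, so its rise is a description. It is part of the count of genes that rose but adds no support to it. Fgr rose with RANKL by 3.15 ± 0.15 and was higher again with acetate, by 0.72 ± 0.09. Lyn, a kinase of the same family, fell with RANKL at -1.47 ± 0.05 and was higher with acetate by 0.30 ± 0.05. Vav3, a guanine nucleotide exchange factor, fell with RANKL at -1.49 ± 0.07. Syk was not called with RANKL, at -0.06 ± 0.05 (edgeR, adjusted p = 0.246), and was lower with acetate than with RANKL alone at -0.25 ± 0.05 (edgeR, adjusted p = 7.5e-05).

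Of 9 inhibitory phosphatases, adaptors and ubiquitin ligases, 1 rose, 5 fell and 3 were not called with RANKL. Among all genes 32.8% rose and 33.5% fell. With acetate against RANKL alone 2 were higher, 2 lower and 5 not called, beside 16.7% higher and 13.7% lower among all genes. Inpp5d, which codes for the SHIP1 phosphatase recruited by the inhibitory receptor, fell with RANKL at -1.14 ± 0.04 and was not called with acetate against RANKL alone, at 0.06 ± 0.05 (edgeR, adjusted p = 0.378). Ptpn6, which codes for the SHP-1 phosphatase, fell at -0.21 ± 0.04 with RANKL and was not called with acetate, at 0.09 ± 0.04 (edgeR, adjusted p = 0.125). The adaptor Dok2 fell with RANKL at -1.08 ± 0.05, and Inppl1, which codes for the related SHIP2, at -0.69 ± 0.05. With acetate against RANKL alone, Dok1 and Dok3 were lower, at -0.45 ± 0.09 and -0.29 ± 0.09, and Inppl1 and the ubiquitin ligase gene Cbl were higher, by 0.37 ± 0.05 and 0.21 ± 0.07.

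Of 18 genes of the phagocytic cup and the superoxide-forming oxidase, 4 rose, 13 fell and 1 was not called with RANKL. Among all genes 32.8% rose and 33.5% fell. With acetate against RANKL alone 7 were higher, 4 lower and 7 not called, beside 16.7% higher and 13.7% lower among all genes. Pik3cg, a catalytic subunit of PI3-kinase, fell with RANKL at -2.02 ± 0.07 and was higher with acetate by 0.85 ± 0.07, while Pik3r5, a regulatory subunit that it binds, rose with RANKL by 1.96 ± 0.05 and was lower with acetate at -0.51 ± 0.04. The oxidase showed a similar split. Ncf1, a cytosolic subunit, fell at -1.80 ± 0.05 with RANKL and was higher with acetate by 1.04 ± 0.05, and Cybb, the catalytic membrane subunit, followed at -1.31 ± 0.04 and 0.94 ± 0.04. Ncf4, another cytosolic subunit, rose with RANKL by 1.21 ± 0.06 and was lower with acetate at -0.57 ± 0.06. Elmo1 and Dock2, which activate Rac, fell with RANKL at -1.39 ± 0.06 and -1.20 ± 0.04 and were higher with acetate by 0.43 ± 0.07 and 0.55 ± 0.05. Each of these changes passed the edgeR test. Over the 4 lists, 52 of 61 genes were tested, of which 31 fell and 14 rose with RANKL, beside 33.5% and 32.8% of all genes. Their median log2 fold change was -0.42 with RANKL and 0.07 with acetate against RANKL alone. Against day 0, acetate libraries had 13 of the 52 higher and 35 lower, beside 30.3% and 30.4% of all genes, with a median of -0.33. Src and Fcrlb, with few day 0 counts, are among the genes above day 0 in both comparisons but add no support to these counts.

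**Figure D4:**
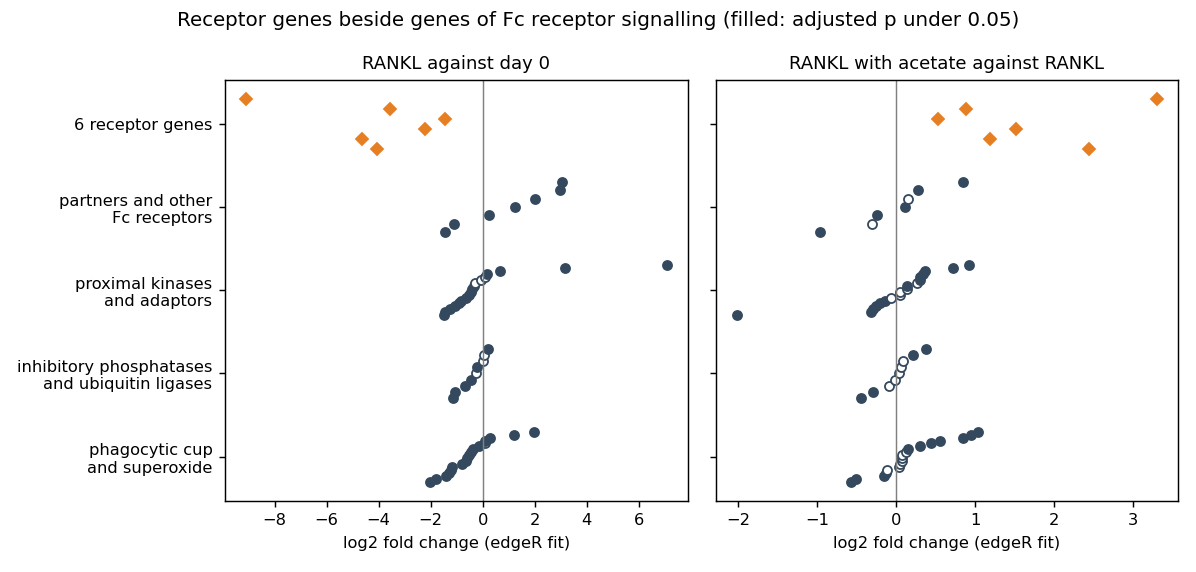
Fitted log2 fold change of the 6 receptor genes (diamonds) and of the tested genes of 4 lists of Fc receptor signalling (circles, filled where edgeR's adjusted p is under 0.05), with RANKL against day 0 on the left and with acetate against RANKL on the right; the vertical spread within a row carries no value. All 6 diamonds lie on 1 side in each panel, whereas each list has genes on both sides of 0, with Src at 7.08 and -2.02 as the farthest circle. Src held 23 counts over the day 0 libraries.

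Genes next to the receptors moved in both directions. Within 200 kb of the 6 genes, from start to start, there were 62 other protein-coding genes, of which 35 were tested. With RANKL, 11 of the 35 rose and 10 fell, beside 32.8% and 33.5% of all genes, and with acetate against RANKL alone 6 were higher and 9 lower, beside 16.7% and 13.7% of all genes. In the chromosome 1 cluster, 9 of 14 neighbours were tested. Fcer1g and Pcp4l1, at -2.23 ± 0.21, fell with RANKL, whereas Fcrlb, on few day 0 counts, and Dusp12, at 0.59 ± 0.13, rose. Sdhc, at -0.05 ± 0.05, was not called. Beside Fcrls, Fcrl1 rose and Cd5l, at -0.37, was not called.

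Other genes had a pattern close to that of a receptor. Likeness was the root mean square difference in log2 CPM, each gene centred on its day 0 mean, over the 4 day 1 libraries, taken over tested genes whose mean reached 10 CPM. Closest to Fcgr1 were the chemokine gene Ccl7 at a difference of 0.1131, the sialic acid-binding receptor gene Siglec1 at 0.1943 and Etv1 at 0.3032. Closest to Fcgr3 were Nrp1 at 0.1258, Gdf15 at 0.149 and Entpd1 at 0.1712. For Fcgr4 they were Ms4a6c at 0.1326, Marcksl1 at 0.1488 and Rgs18 at 0.1621, and for Fcgr2b Smad3 at 0.0632, Susd3 at 0.0898 and Fndc3b at 0.1011. Fcgrt was nearest to the proton pump gene Atp6v0a1 at 0.0925, to Hmox1, which codes for heme oxygenase, at 0.1514, and to C1qb, a complement gene, at 0.2. No gene came close to Fcrls, whose nearest was the iron exporter gene Slc40a1 at 0.9301. The libraries are shared by all these genes, and the values are a description.

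The labelled cell type was checked against markers, which also moved between groups. The 8 macrophage markers were detected in all 6 libraries, and their summed level was 20260 to 20560 TPM at day 0, 6714 to 6739 TPM with RANKL and 14650 to 14920 TPM with acetate. Most of each sum was Lyz2, at 17280.43 and 17066.64 TPM, 5350.24 and 5331.69 TPM, and 13053.67 and 12839.86 TPM in the same order. With RANKL all 8 fell, with a median log2 fold change of -1.66, from Mertk at -4.48 ± 0.13 to Cd68 at -0.80 ± 0.04, and against RANKL alone all 8 were higher with acetate, with a median of 0.98. The 5 osteoclast markers all rose with RANKL and were all lower with acetate than in that group. Ctsk, Dcstamp and Ocstamp held at most 14 counts in a day 0 library. They needed the day 1 libraries to pass the filter, so their rise is a description. The summed level of the 5 markers was 19.08 and 23.36 TPM at day 0, 1783 and 1752 TPM with RANKL, and 437.6 and 409.6 TPM with acetate. The part of these changes in those of the receptors was not tested.

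Markers of other cells that carry Fc receptors were also read. The 7 B cell markers summed to 23.99 to 36.21 TPM at day 0, 3.35 to 3.71 TPM with RANKL and 4.35 to 4.96 TPM with acetate, most of it from Ighm, and 1 to 3 of the 7 were at 0 in each library. Ighm fell with RANKL at -3.37 ± 0.21. The 7 neutrophil markers summed to 661.7 to 688.6 TPM at day 0, 517.4 to 524.5 TPM with RANKL and 504.2 to 521.9 TPM with acetate, and Ly6g held at most 3 counts in any library. Markers of T or NK, mast or basophil, dendritic, erythroid and stromal cells summed to at most 3.34 TPM in any library. Their part in the receptor values was not tested.

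The total expected count per library lay between 9997527 and 11254961. The counts of the 2 libraries of a group differed by more than sampling noise, with a mean chi-square per gene of 1.93 to 2.58 against an expectation near 1.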

How the data were processed

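RNA-seq was made from 3 groups of 2 libraries, grouped by sample title. Replicate 1 is the title that ends in 1 and replicate 2 the title without a number. Per the labels' protocols, RNA was extracted with a miRNeasy kit, treated with DNase and made into libraries with a SMARTer mRNA-Seq kit. The sources used here do not say how strand was handled. Per the submitters' processing notes, Trimmomatic 0.39, STAR, RSEM 1.3.1 and DESeq2 1.26.0 were used with GRCm38 (mm10). Neither the gene annotation nor the STAR version is given there.

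The authors deposited RSEM expected counts, not normalized, for genes and transcripts. The deposited TPM and the deposited FPKM correct each transcript for its length and each library for its total, as the authors' RSEM gives them. Whole numbers, within 0.005, made up 97.1% of the expected counts of genes. They were rounded and fitted with edgeR 4.0.16 (R 4.3.3) by the quasi-likelihood test over all 6 libraries, with filterByExpr (minimum count 10, minimum total 15; 12224 genes kept), TMM factors from 0.952 to 1.037 and Benjamini-Hochberg adjustment over all genes tested. CPM use the scaled totals. The standard error is the size of the log2 fold change divided by the square root of F. The script was tested on simulated data. Expected count ratios of Fcrls have exact 95% intervals. TPM served levels, shares, ratios and transcripts.

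The members, lists, markers and naming rule were chosen with earlier results of these data known. Besides the members, the genes named are up to 4 called genes of largest change per list and comparison, with Fcer1g, B2m, Syk, Inpp5d and Ptpn6, tested neighbours, and the 3 genes most alike each member; markers were named after their values were seen. Some genes that enter the counts of lists, markers and neighbours are not reported here by name. Alternatives were RLE and upper-quartile factors, DESeq2 1.42.0, limma-voom (limma 3.58.1), other filters, fits of only the groups compared, a replicate block, limma on log2 of TPM plus 0.1 or 1 and of FPKM plus 0.1, and each library left out. Counting Fcgr2b and Fcgr3 as 1 feature was added after the data were seen. Coordinates and exons are from GENCODE M21, upstream sequences from RefSeq.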

Additional observations from a re-analysis of the deposited data

How the results depend on the processing

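All 6 receptor genes kept their direction in all alternatives run and in all 3 comparisons. Calls were kept in each of the 17 alternatives except for 2 results. The rise of Fcgr2b with acetate against RANKL alone was 0.54 on log2(TPM + 0.1) (limma, adjusted p = 0.0649), 0.53 on log2(TPM + 1) (adjusted p = 0.0646) and 0.53 on log2(FPKM + 0.1) (adjusted p = 0.0671), and ranged from 0.34 to 0.70 when each library was left out. The rise of Fcrls in the same comparison was 0.89 on log2(TPM + 1) (limma, adjusted p = 0.114), and ranged from 2.36 to 6.35 when each library was left out. Against day 0, the fitted Fcrls value ranged from -12.15 to -8.16 with RANKL and from -6.53 to -5.31 with acetate when each library was left out, and was -5.33 and -4.44 on log2(TPM + 1). Genes of the 4 signalling lists that were lower with acetate than with RANKL alone numbered 14 with edgeR and 9 in each of the 3 limma fits of TPM or FPKM. Over all genes, calls in that comparison numbered 3717 with edgeR, 2462 with DESeq2, 1843 on log2(TPM + 0.1), 1908 on log2(TPM + 1) and 1894 on log2(FPKM + 0.1). Small counts of single lists also moved. With RANKL the 1 riser among the inhibitory genes became 0 with DESeq2, in both TPM fits and without day 0 replicate 1 or RANKL replicate 2. With acetate against RANKL alone, their 2 higher and 2 lower genes became 1 in up to 7 settings, and the 4 lower genes of the phagocytic cup became 2 in 5 settings. With acetate against day 0, the 2 lower partners became 1 in 4 settings, the 7 lower inhibitory genes 4 in the 3 limma fits, and the 5 higher genes of the cup 3 in 5 settings. The cause of these differences was not tested. The fit with the replicate number as a block changed no call among the 6 genes. For Fcgr2b with acetate against RANKL alone it gave 0.53 (adjusted p = 0.000188). The numbers do not pair the libraries, since deviations of same-numbered libraries correlated between -0.0633 and -0.00672. Where a library was left out, its group's remaining library was assumed to vary like the others. With 2 libraries a group the exact tests of ratios could not pass 0.05. At this depth, Fcrls at day 1 is limited by counts of 0 to 14.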
